A study of Mus musculus with 12 samples.

Results

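SR proteins and heterogeneous nuclear ribonucleoproteins (hnRNPs), the general RNA-binding regulators of splicing, were followed at the RNA level in B16-F10 mouse melanoma cells with and without loss of *Mbnl1* and *Mbnl2* and with and without IFNγ. Members were chosen by gene symbol alone: every listed gene named *Srsf* followed by a number, every gene whose symbol begins with *Hnrnp*, and *Tra2a* and *Tra2b*. The symbols gave 31 of the 23022 listed genes, 13 SR proteins and 18 hnRNPs. Of these, 30 were tested, and *Srsf12* was listed at 0 in all 12 libraries.

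The RNA-seq libraries fall into 4 groups of 3: untreated NTC cells, NTC cells treated with IFNγ, untreated DKO cells and DKO cells treated with IFNγ. NTC cells carry a control guide that the study calls non-targeting, while the sample labels write no template control. DKO cells received a paired guide against *Mbnl1* and *Mbnl2*, and all 4 groups descend from a single clone of B16-F10 selected to express Cas9 and were transduced with a lentiviral guide vector. The edited cells are a polyclonal population in which blots still showed some protein, so DKO means reduced rather than absent MBNL. Each genotype was also a separately transduced population, and an effect of the population cannot be told apart from one of the genotype. Nothing in the labels says whether replicates were separate cultures, so p-values measure the spread between these libraries, which may be technical.

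SR proteins carry an RNA recognition motif and a domain rich in arginine and serine. They typically bind exonic enhancers and help the spliceosome to define an exon. hnRNPs coat nascent transcripts and often repress exons, in competition with SR proteins, and several members of both families limit their own RNA through exons that bring in a premature stop codon. MBNL proteins are more selective splicing regulators, which bind clusters of YGCY motifs (Y is C or T).

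Values are TPM, a gene's part of all transcripts counted in a library, and keep no read counts, so the depth of each library cannot be read from them. Differences were estimated with limma on log2(TPM + 1), and a gene was called at a Benjamini-Hochberg adjusted p-value under 0.05 over the 11663 tested genes. On this scale the fold of a gene at a few TPM is understated. Whether the libraries of 2 groups overlap is given below as a description of each gene. How many of all tested genes have groups that do not overlap was not counted. Members that were not called can be separate too, as *Hnrnpc* was between untreated DKO and NTC (limma adjusted p = 0.71). The median SD of the tested members between replicates was 0.0369 (log2) in untreated NTC, 0.0586 in treated NTC, 0.0445 in untreated DKO and 0.085 in treated DKO libraries. The libraries were unstranded, which makes the values of genes lying across from each other uncertain.

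The targeted genes were lower in every DKO library than in any NTC library. *Mbnl1* ranged from 55.6 to 63.9 TPM in NTC and from 41.1 to 47.5 TPM in DKO libraries, and *Mbnl2* from 99.2 to 107 TPM in NTC and from 83.9 to 98.0 TPM in DKO libraries. The remaining family member *Mbnl3*, which no guide targeted, was called higher in both DKO comparisons. It ranged from 4.56 to 6.5 TPM in NTC and from 6.87 to 8.33 TPM in DKO libraries. IFNγ acted in both genotypes: *B2m*, *Gbp2*, *Irf1* and *Tap1*, classical IFNγ-induced genes, were each called higher in NTC and in DKO. The line's melanocyte identity was visible in 7 markers, *Tyrp1* the most abundant, which together summed to 16650 to 18640 TPM in NTC and 11120 to 12410 TPM in DKO libraries. All 7 were called lower in untreated DKO (median −0.53) and 6 of 7 in treated DKO (median −0.57). Leukocyte and epithelial markers were near the floor, with *Ptprc*, *Cd3e*, *Adgre1*, *Epcam*, *Krt8* and *Krt18* at 0 in all 12 libraries. Of 5 fibroblast and endothelial genes, *Col1a1* and *Col1a2* were tested and called higher in DKO in both comparisons, at no more than 2.28 TPM. *Col1a1* measured 0.239 to 0.714 TPM in NTC and 1.056 to 1.175 TPM in DKO libraries. It thus passed the filter of 1 TPM only through the group where it is high, and its call shows nothing further. *Pdgfra* and *Pecam1* stayed under 1 TPM and were not tested, and *Cdh5* was at 0. The part of these shifts in the values of splicing factors was not tested, and in bulk RNA fewer cells of a kind cannot be told apart from less RNA per cell.

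The members were abundant. *Hnrnpa2b1*, *Hnrnpa3*, *Hnrnpab*, *Hnrnpk*, *Hnrnpa1* and *Hnrnpf* led with means of 1048, 804, 775, 742, 699.6 and 667 TPM over the 12 libraries. The SR genes were less abundant, from *Srsf3* at 363 TPM and *Srsf2* at 344 TPM down to *Srsf4* at 26.2 TPM. *Hnrnph3* was the least abundant tested member at 16.9 TPM. Summed over the 13 SR genes, the level was 2129, 2223 and 2181 TPM in untreated NTC and 2269, 2289 and 2366 TPM in untreated DKO libraries, so the groups did not overlap. With IFNγ the SR sums were 2267, 2200 and 2274 TPM for NTC and 2231, 2087 and 2305 TPM for DKO libraries, which overlapped. The 18 hnRNPs summed to 6418, 6617 and 6503 TPM in untreated NTC, 6880, 7386 and 7260 TPM in treated NTC, 6621, 6720 and 6875 TPM in untreated DKO and 6832, 6404 and 7179 TPM in treated DKO libraries. Every treated NTC library was above every untreated NTC library in this sum, whereas the DKO libraries overlapped. The untreated DKO libraries were likewise above the untreated NTC libraries, by 6621 against 6617 TPM at the nearest, and from 6778 against 6593 TPM after scaling to the same total.

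**Figure D1:**
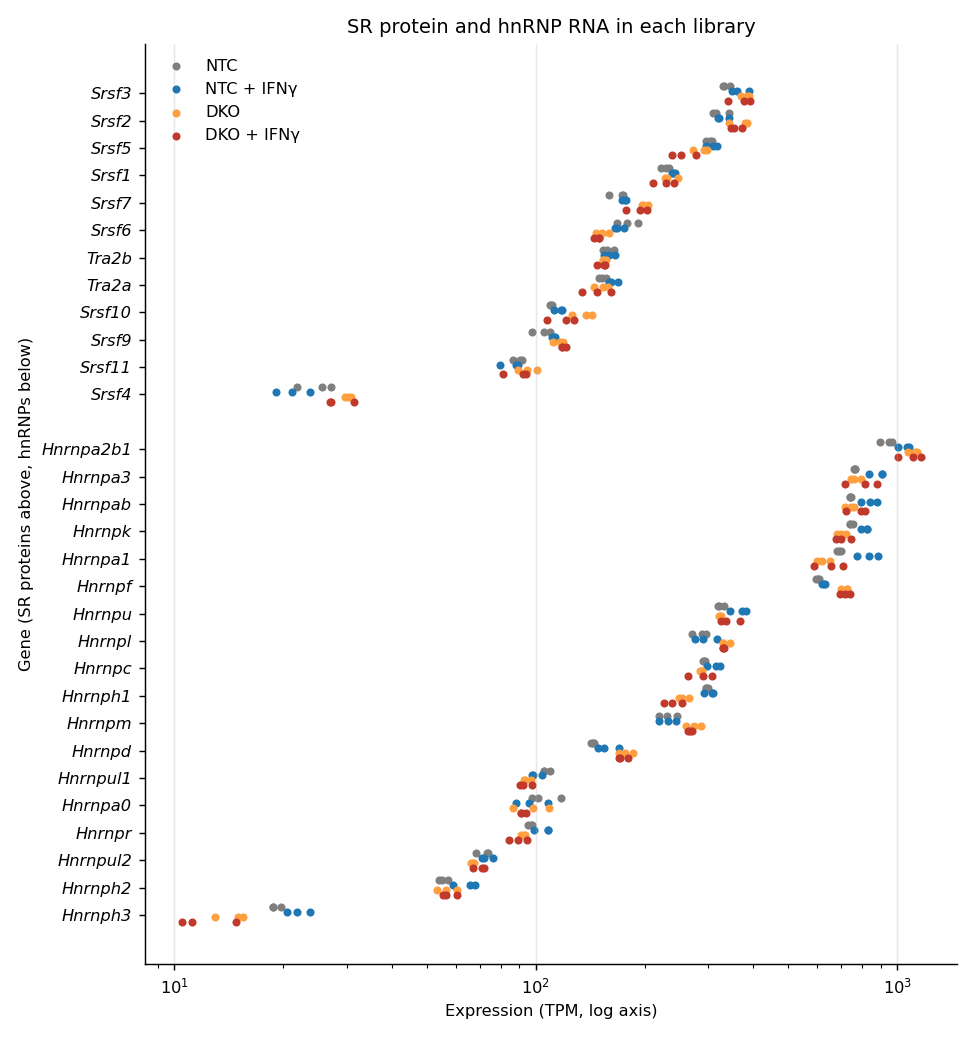
TPM of the 30 tested members on a log axis, SR proteins above and hnRNPs below, each ordered by mean level. Each dot is 1 library, coloured by group. The groups lie close together for most members, and *Srsf4* and *Hnrnph3* lie below the others.

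Without IFNγ, 11 of 30 members were called higher in DKO than in NTC, and 4 were called lower. Among all tested genes the shares were 17% higher and 19.4% lower, against 36.7% and 13.3% of the members. Of genes at least as abundant as the least abundant tested member, 17.2% were called higher and 24.8% lower. The median member difference was 0.0025 (log2), beside −0.0055 for all genes, and no member's estimate was beyond 0.5. The higher group held 6 of 12 tested SR genes, against 5 of 18 hnRNPs, and the lower group 1 SR gene and 3 hnRNPs. Those SR counts were the same, 6 and 1, with libraries scaled to equal totals, with median ratios and after a trend with GC content and length was subtracted. The 5 hnRNPs called higher were also 5 under each, and the 3 called lower became 5 once the trend was subtracted. Across all genes, 46.7% of calls were higher in DKO, and 60.7% after scaling to the same total. Without untreated DKO replicate 3, 1589 of 11627 tested genes were called higher, against 1982 of 11663 with all libraries. There, 7 members were called higher, and *Srsf2*, *Srsf3*, *Srsf4* and *Srsf9* lost the call. *Srsf2*, *Srsf3* and *Srsf4* also lost it without untreated NTC replicate 1, so the SR count of 6 did not hold in these fits.

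With IFNγ, 5 members were called higher in DKO and 7 lower, or 16.7% and 23.3%. As deposited, these shares lie near those of all tested genes, 19.5% and 23.9%, and below the 18.1% and 31.2% of genes of at least the same abundance. The median member difference was −0.08 against −0.013 for all genes. How many members were higher depended on the scaling: 9 when libraries were brought to the same total, 7 with median ratios and 12 after the trend with GC content and length was subtracted. The corresponding counts of lower members were 6, 7 and 7. Of all tested genes, 3283 of 11663, 2400 of 11662 and 2346 of 11563 were called higher under these settings. Those called lower numbered 1746, 2563 and 2635. Of all calls, 44.9% were higher in DKO as deposited and 65.3% after scaling to the same total. Without treated NTC replicate 1 the counts were 3 higher and 12 lower, and without treated DKO replicate 3 they were 4 higher and 14 lower. Among all tested genes, 2151 were higher and 2565 lower of 11639 in the first fit, and 2266 and 2847 of 11640 in the second. The members' lower calls rose in these fits while those of all genes stayed near the 2782 found with all libraries. *Hnrnpa3*, *Hnrnpab*, *Hnrnpc*, *Hnrnph2* and *Hnrnpu* were the members added to the lower group by either removal, and the second also added *Srsf1* and *Tra2a*.

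**Figure D2:**
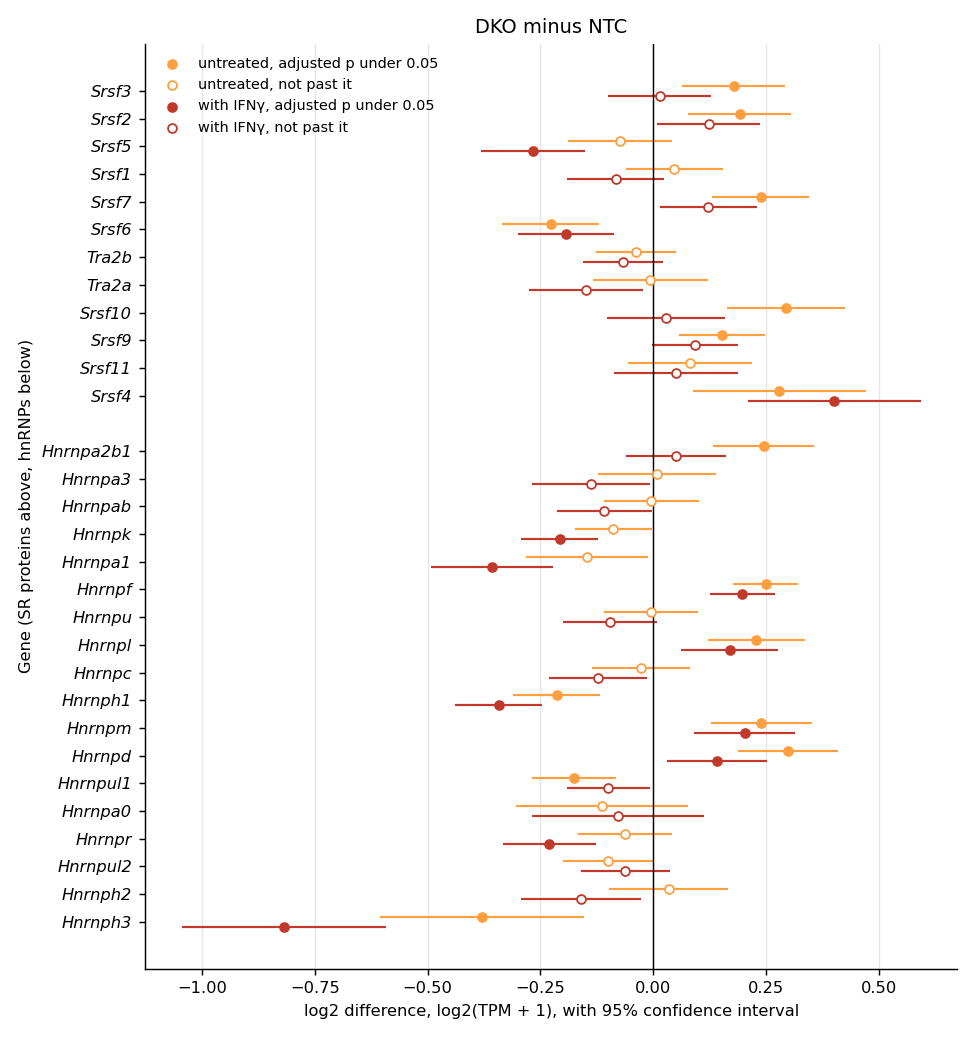
Difference between DKO and NTC libraries (log2 scale) of each tested member without IFNγ (orange) and with it (red). Points are limma estimates, lines their 95% confidence intervals, and filled points passed an adjusted p of 0.05. *Hnrnph3* lies farthest to the left with IFNγ at −0.82 and *Srsf4* farthest to the right at 0.40.

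Both DKO comparisons called *Srsf4*, *Hnrnpd*, *Hnrnpf*, *Hnrnpl* and *Hnrnpm* higher, and *Srsf6*, *Hnrnph1* and *Hnrnph3* lower. These are 16.7% and 10% of the members, against 12.5% and 15% of all tested genes. No member and 7 of all genes were called in opposite directions, and 11 members (36.7%) and 47.9% of all genes in neither. The comparisons use different libraries for each treatment but share the cell populations and 1 estimate of the spread.

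With IFNγ in NTC cells, 5 of 30 members (16.7%) were called higher, all hnRNPs: *Hnrnpa1*, *Hnrnpa3*, *Hnrnph2*, *Hnrnpu* and *Hnrnpab*. None was called lower by limma, and 11 were higher and 1 lower at an unadjusted p under 0.05, a threshold that 31.8% of all tested genes passed. All tested genes had 7.31% called higher and 4.78% lower, and among genes of at least members' abundance 10.7% were called higher. *Hnrnpk* and *Hnrnpa2b1* lay just outside the threshold, with adjusted p-values of 0.0501 and 0.0526, and both were called without treated DKO replicate 2 or 3. The count of 5 did not hold under most other settings. It was 1 with no filter on low values, 1 under each of the scalings and once the trend with GC content and length was subtracted, and 0 with 1 prior variance for all genes. A fit of only the 6 NTC libraries kept all 5 calls and added *Hnrnpa2b1* (adjusted p = 0.0428) and *Hnrnpk* (0.039). A pseudocount of 0.1 added *Hnrnpk* (0.0494). By library the count was 0 without replicate 2 or 3 of either untreated or treated NTC cells, and 1 without untreated NTC replicate 1. It was 8 without treated NTC replicate 1, where *Hnrnpa2b1*, *Hnrnpk* and *Hnrnpr* were added, 3 without untreated DKO replicate 2, and 2 without untreated DKO replicate 3 or treated DKO replicate 1. All tested genes called higher also changed, from 853 with all libraries to 262 and 229 without untreated NTC replicate 2 and 3. They numbered 213 and 218 without treated NTC replicate 2 and 3, and 896 without treated NTC replicate 1. With 1 prior variance they numbered 439, and 349 once the trend was subtracted. Of all genes called, 60.5% were higher as deposited, against 45.1% after scaling to the same total and 48.8% with median ratios.

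The members are poor in G and C, with a median GC content of 44.6% across their annotated transcripts against 50.6% for all tested genes, and 25 of the 30 lie below that median. The IFNγ difference in NTC followed GC content across the table: the median was 0.13 in the quartile of genes with the lowest GC content, then 0.068, −0.014 and −0.13 in the highest. The medians of DKO minus NTC with IFNγ ran the other way, −0.12, −0.054, 0.022 and 0.13, while those without IFNγ lay between −0.022 and 0.018. After subtraction of that trend, the median member difference went from 0.078 to −0.011 for IFNγ in NTC and from −0.08 to 0.023 for DKO with IFNγ.

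In DKO cells, no member was called in either direction with IFNγ by limma, where 0.677% of all genes were called higher and 0.103% lower. At an unadjusted p under 0.05, which 9.59% of all genes passed, 4 members were lower: *Srsf5*, *Srsf10*, *Hnrnph1* and *Hnrnph3*. After the trend with GC content and length was subtracted, *Srsf5* and *Srsf10* were called lower. The difference between the responses of the genotypes was called for none of the members, as against 0.00857% of all genes higher and 0.0257% lower. Its lowest adjusted p over the members was 0.364. An unadjusted p under 0.05 was reached by 11.5% of all genes and by 8 members, all of which had a lower response in DKO, led by *Hnrnph3* at −0.44 (95% interval −0.76 to −0.12) and *Srsf10* at −0.27 (95% interval −0.45 to −0.08). A call in 1 genotype and none in the other is therefore not shown to differ. The difference of responses also followed GC content, with medians of −0.1, −0.041, 0.022 and 0.12 from the lowest quartile to the highest. Its member median was −0.11, and −0.031 after the GC and length trend was subtracted. With 1 library left out, this median ran from −0.15 without treated DKO replicate 3 to −0.062 without treated DKO replicate 2.

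**Figure D3:**
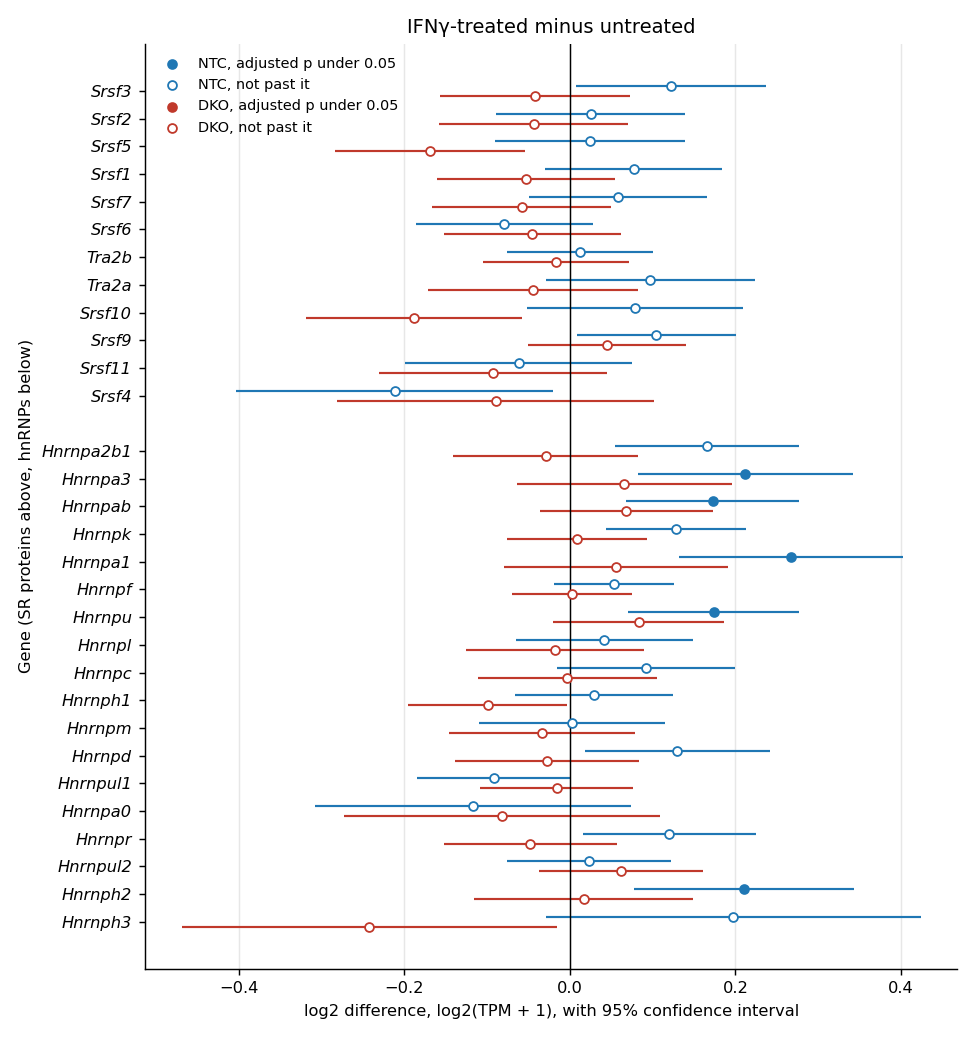
Difference between IFNγ-treated and untreated libraries (log2 scale) of each tested member in NTC (blue) and DKO (red) cells. Points are limma estimates with 95% confidence intervals, and filled points passed an adjusted p of 0.05. Only the 5 hnRNPs called in NTC are filled, with estimates from 0.17 to 0.27.

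Among the SR proteins, *Srsf4* (SRp75) had the largest rise of any member in DKO cells with IFNγ. *Srsf4* measured 21.8, 27.1 and 25.6 TPM across untreated NTC and 30.9, 29.7 and 30.3 TPM across untreated DKO libraries. *Srsf4* with IFNγ measured 23.7, 21.2 and 19.1 TPM across NTC and 27.1, 31.4 and 27.0 TPM across DKO libraries. Every DKO library was above every NTC library of the same treatment. The differences were 0.28 (log2, SE 0.0888, adjusted p = 0.0246) without IFNγ and 0.40 (log2, SE 0.0888, adjusted p = 0.00267) with it. The call without IFNγ did not hold when the fit left out untreated NTC replicate 1 (adjusted p = 0.118), untreated DKO replicate 1 (0.0682) or untreated DKO replicate 3 (0.0601). An antisense transcript that the deposited table does not list shares 1532 exonic bases with *Srsf4*, so its reads cannot be separated.

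*Srsf10* (SRp38), which turns into a general repressor of splicing when it loses phosphate, was higher in untreated DKO. *Srsf10* measured 110.2, 111 and 109 TPM across untreated NTC and 126, 138 and 143 TPM across untreated DKO libraries. *Srsf10* with IFNγ measured 118, 112 and 118 TPM across NTC and 121, 108 and 128 TPM across DKO libraries. The untreated groups did not overlap, while the treated DKO libraries fell on both sides of the treated NTC libraries. The difference was 0.30 (log2, SE 0.0605, adjusted p = 0.00189) without IFNγ and 0.03 (adjusted p = 0.73) with it, which became 0.19 (adjusted p = 0.00261) after the GC and length trend was subtracted.

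The promoter windows of the 30 members found in the RefSeq table (GRCm38.p6, 250 bases before to 50 after the start, the first listed start of each gene) had a median GC content of 64.2%, against 52.7% for all 27025 genes listed there. The members' windows held a median of 28 CpG (C followed by G), against 7 for all genes. They include the window of the untested *Srsf12* and lack that of *Hnrnpul2*. All windows were searched on both strands for 6 motifs. The letters CTCGCGAG, the core of the palindrome bound by the transcription factor BANP, were in 3 of the 30, or 10%, and in 0.958% of all promoters. These letters contain CpG, which the members' windows hold more of, and no share among promoters of like CpG content was taken. The excess over all promoters is therefore not shown to be particular to the members. The 3 genes were *Srsf4*, *Srsf10* and *Hnrnph1*, each called in untreated DKO, the first 2 higher and *Hnrnph1* lower. They are shown because these members moved with genotype, with the match in capitals. No match overlapped another motif searched. A match is a description of the window and not a site of binding.
Srsf4, chr4:131873387-131873686, plus strand: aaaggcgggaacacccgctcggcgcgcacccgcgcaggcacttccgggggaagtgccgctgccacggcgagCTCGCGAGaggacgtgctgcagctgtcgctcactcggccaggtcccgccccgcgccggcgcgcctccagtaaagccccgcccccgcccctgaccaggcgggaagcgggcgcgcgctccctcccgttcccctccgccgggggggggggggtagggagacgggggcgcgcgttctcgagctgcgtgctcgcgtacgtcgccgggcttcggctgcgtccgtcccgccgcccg
Srsf10, chr4:135855821-135856120, plus strand: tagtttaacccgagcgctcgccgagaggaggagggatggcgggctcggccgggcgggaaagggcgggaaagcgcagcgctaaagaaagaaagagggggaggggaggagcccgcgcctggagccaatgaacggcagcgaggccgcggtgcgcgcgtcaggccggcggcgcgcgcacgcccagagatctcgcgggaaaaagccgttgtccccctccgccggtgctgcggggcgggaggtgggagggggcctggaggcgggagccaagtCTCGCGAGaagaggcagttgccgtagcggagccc
Hnrnph1, chr11:50376740-50377039, plus strand: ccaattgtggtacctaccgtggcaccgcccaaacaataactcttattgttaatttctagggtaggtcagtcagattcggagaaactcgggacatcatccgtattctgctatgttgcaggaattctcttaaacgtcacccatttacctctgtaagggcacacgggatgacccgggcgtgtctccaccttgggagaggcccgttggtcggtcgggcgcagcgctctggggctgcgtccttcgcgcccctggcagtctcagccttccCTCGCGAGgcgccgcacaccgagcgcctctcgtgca

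*Srsf6* (SRp55) was the SR gene called lower in DKO with and without IFNγ. *Srsf6* measured 168, 192 and 178 TPM across untreated NTC and 159.8, 147 and 152 TPM across untreated DKO libraries. *Srsf6* with IFNγ measured 175, 166 and 168 TPM across NTC and 149.5, 145 and 150.0 TPM across DKO libraries. All DKO libraries were below all NTC libraries. The estimate was −0.23 (log2, SE 0.0496, adjusted p = 0.00292) untreated and −0.19 (log2, SE 0.0496, adjusted p = 0.00682) treated, of which the latter was lost after scaling to the same total (adjusted p = 0.111).

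*Srsf5* (SRp40), a gene known for rapid induction in regenerating liver, was called with IFNγ alone. *Srsf5* measured 304, 308 and 296 TPM across untreated NTC and 272, 298 and 293 TPM across untreated DKO libraries. The untreated groups overlapped. *Srsf5* with IFNγ measured 318, 297 and 309 TPM across NTC and 252, 239 and 277 TPM across DKO libraries. There, each DKO library was below each NTC library. Its DKO difference was −0.27 (log2, SE 0.0533, adjusted p = 0.00135) with IFNγ and −0.07 (adjusted p = 0.304) without. The first was −0.13 (adjusted p = 0.0132) after the GC and length trend was subtracted. The difference of these estimates did not pass the test (adjusted p = 0.409).

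*Srsf2* (SC35), *Srsf3*, *Srsf7* (9G8) and *Srsf9* (SRp30c) were called higher in untreated DKO by 0.19, 0.18, 0.24 and 0.15 (log2), with no overlap between the untreated groups. *Srsf2* ranged over 309.6 to 384 TPM, *Srsf3*, which also acts in mRNA export, over 330.0 to 393 TPM, *Srsf7* over 159.5 to 205 TPM and *Srsf9* over 97.6 to 122 TPM in the 12 libraries. None of these 4 was called with IFNγ, where the estimates were 0.12, 0.01, 0.12 and 0.09, but that depended on the scaling. After the GC and length trend was subtracted all 4 were called higher with IFNγ, at adjusted p-values of 0.0125, 0.0132, 0.000242 and 0.012. Scaling to the same total called *Srsf2*, *Srsf7* and *Srsf9*, and median ratios called *Srsf2* and *Srsf7*. *Srsf7* was also called there without untreated NTC replicate 1 (0.0489) or treated DKO replicate 2 (0.00962). *Srsf3* lost its call without untreated NTC replicate 1 or 2 or untreated DKO replicate 2 or 3, with adjusted p-values from 0.0528 to 0.0641. *Srsf2* lost it without untreated NTC replicate 1 (0.0537) or untreated DKO replicate 3 (0.0577), and *Srsf9* without untreated NTC replicate 3 (0.0849) or untreated DKO replicate 3 (0.0673). *Srsf2* shares 460 exonic bases with *Mettl23* and 288 with *Mfsd11* on the opposite strand, genes at up to 76.8 and 39.9 TPM.

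*Srsf1* (SF2/ASF), the founding member and a known proto-oncogene, ranged over 210.5 to 248 TPM and was called in no comparison with all libraries, with a DKO difference of 0.05 (95% interval −0.06 to 0.15) without IFNγ and −0.08 (95% interval −0.19 to 0.02) with it. *Srsf11*, at 79.8 to 101 TPM, was not called either, except with IFNγ after the GC and length trend was subtracted, at 0.15 (adjusted p = 0.0427). The transformer-2 homologs *Tra2a* and *Tra2b*, which bind GAA-rich enhancers and are SR-like factors, lay at 134 to 169 TPM and 148 to 166 TPM. Their DKO differences without IFNγ were −0.01 (95% interval −0.13 to 0.12) and −0.04 (95% interval −0.13 to 0.05). With IFNγ, *Tra2a* was at −0.15 (adjusted p = 0.0569) and *Tra2b* at −0.07 (adjusted p = 0.204).

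The A/B group of hnRNPs held the most abundant members. *Hnrnpa1*, a repressor that binds UAG-containing sites and silences exons, had the largest rise of any member with IFNγ in NTC cells. *Hnrnpa1* measured 691, 698 and 684 TPM across untreated NTC and 599.8, 621 and 652 TPM across untreated DKO libraries. *Hnrnpa1* with IFNγ measured 774, 887 and 837 TPM across NTC and 656, 588 and 708 TPM across DKO libraries. Treated NTC libraries were above all others, and within each treatment all DKO libraries were below all NTC libraries. IFNγ raised *Hnrnpa1* in NTC by 0.27 (log2, SE 0.0628, adjusted p = 0.0202), a fold of 1.2. That call was lost with 1 prior variance (adjusted p = 0.0504), without untreated NTC replicate 2 (0.0588) or 3 (0.0678), and when treated NTC replicate 2 (0.0844) or 3 (0.0699) was left out. It was also lost with the trend with GC content and length subtracted in a fit with the replicate block, where the estimate was 0.16 (adjusted p = 0.0576). With IFNγ, DKO was lower, at −0.36 (log2, SE 0.0628, adjusted p = 0.000543), and without it the estimate was −0.15 (adjusted p = 0.0858). The latter was called after the GC and length trend was subtracted (0.0401), with only the 6 untreated libraries (0.0129) and without treated DKO replicate 2 (0.0343) or 3 (0.047). After scaling to the same total the estimate without IFNγ was −0.10 (adjusted p = 0.212). The IFNγ difference in DKO was 0.06 (adjusted p = 0.827), and the difference between genotypes was −0.21 (adjusted p = 0.42).

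None of the 5 hnRNPs called higher with IFNγ in NTC had, within its promoter window, the letters of the IFNγ-activated site (TTCNNNGAA) or of the interferon-stimulated response element (GAAANNGAAA). The first was in 3 of 30 members, *Hnrnpa2b1*, *Hnrnph1* and *Hnrnpr*, and in 8.47% of all promoters, and the second in none of the members and in 3.49% of all promoters. CCAAT was in 17 of 30 members, or 56.7%, and in 37.9% of all promoters. The window of *Hnrnpa1*, shown as the member with the largest IFNγ difference, holds it 4 times, in capitals.
Hnrnpa1, chr15:103240147-103240446, plus strand: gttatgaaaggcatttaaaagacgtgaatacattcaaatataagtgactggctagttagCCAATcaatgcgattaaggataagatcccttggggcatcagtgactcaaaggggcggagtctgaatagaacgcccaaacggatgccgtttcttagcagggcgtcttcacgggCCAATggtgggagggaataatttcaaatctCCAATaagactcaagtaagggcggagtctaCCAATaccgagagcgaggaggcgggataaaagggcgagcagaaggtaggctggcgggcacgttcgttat

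*Hnrnpa2b1*, the close relative of *Hnrnpa1* that also sorts RNA in the cytoplasm, differed between genotypes in the other direction. *Hnrnpa2b1* measured 895, 969.5 and 948 TPM across untreated NTC and 1075, 1135 and 1124 TPM across untreated DKO libraries. *Hnrnpa2b1* with IFNγ measured 1008, 1068 and 1079 TPM across NTC and 1105, 1005 and 1161 TPM across DKO libraries. The untreated groups did not overlap, and the treated groups did. DKO was higher by 0.25 (log2, SE 0.0517, adjusted p = 0.00227) without IFNγ, and with it the estimate was 0.05 (adjusted p = 0.457). The latter was called after scaling to the same total (adjusted p = 0.0366) and after the GC and length trend was subtracted (0.00123). The ratio of *Hnrnpa2b1* to *Hnrnpa1* was between 1.2 and 1.39 in the 6 NTC libraries and between 1.64 and 1.83 in the 6 DKO libraries, with no overlap.

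*Hnrnpa3* and *Hnrnpab* changed with IFNγ in NTC. *Hnrnpa3* measured 765, 764 and 758 TPM across untreated NTC and 761, 746 and 793 TPM across untreated DKO libraries. *Hnrnpa3* with IFNγ measured 836, 906 and 909 TPM across NTC and 815, 719 and 882 TPM across DKO libraries. The untreated groups overlapped and treated NTC libraries were above untreated ones, with an IFNγ difference of 0.21 (log2, SE 0.0604, adjusted p = 0.04). Leaving out 1 library moved the adjusted p of *Hnrnpa3* between 0.00786 and 0.125, and the call was lost whichever untreated NTC replicate was left out, and without treated NTC replicate 2 or 3, untreated DKO replicate 2 or 3 or treated DKO replicate 1. The call of *Hnrnpa3* was also lost with no filter on low values, under each scaling and with 1 prior variance, and after the GC and length trend was subtracted the estimate was 0.11 (adjusted p = 0.147). The share assigned to *Hnrnpa3* is uncertain, because the annotation holds 26 other genes with a transcript at least 95% identical to it over at least 300 bases, 24 of them pseudogenes. One, *Gm5641*, is identical over 1488 aligned bases and was listed at 423 to 485 TPM. *Hnrnpab* measured 739, 743 and 747 TPM across untreated NTC and 718, 746 and 759 TPM across untreated DKO libraries. *Hnrnpab* with IFNγ measured 794, 879.8 and 840.2 TPM across NTC and 796, 722 and 816 TPM across DKO libraries. Again only the NTC groups separated by treatment, by 0.17 (log2, SE 0.0486, adjusted p = 0.0387). The same libraries lost this call, with adjusted p between 0.0128 and 0.139. So did the replicate block (adjusted p = 0.0509), no filter on low values, each scaling and 1 prior variance, and subtraction of the GC and length trend, at 0.19 (adjusted p = 0.0515). *Hnrnpab* shares 809 exonic bases with *Phykpl* on the other strand, at up to 22 TPM. DKO differences of *Hnrnpa3* and *Hnrnpab* were 0.01 and −0.00 without IFNγ and −0.14 (adjusted p = 0.0824) and −0.11 (adjusted p = 0.0889) with it.

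*Hnrnpd* (AUF1), which binds AU-rich elements and promotes mRNA decay, had the highest estimate of any member in untreated DKO. *Hnrnpd* measured 144, 142 and 145 TPM across untreated NTC and 176, 169.5 and 186 TPM across untreated DKO libraries. *Hnrnpd* with IFNγ measured 149, 170.5 and 154 TPM across NTC and 171, 170.0 and 180.5 TPM across DKO libraries. The untreated groups did not overlap, whereas treated NTC replicate 2 lay within the range of the treated DKO libraries. DKO was higher by 0.30 (log2, SE 0.0518, adjusted p = 0.000567) without IFNγ and by 0.14 (log2, SE 0.0518, adjusted p = 0.0404) with it. No filter on low values lost the second call (adjusted p = 0.0559), as did the replicate block (0.0521), a fit of only the 6 treated libraries (0.0907), 1 prior variance (0.0724) and leaving out any of 7 libraries. Those were untreated NTC replicates 2 and 3, treated NTC replicates 1 and 3, untreated DKO replicate 1 and treated DKO replicates 1 and 3, with adjusted p-values from 0.0503 to 0.157. The second estimate was 0.24 (adjusted p = 0.000855) after the GC and length trend was subtracted and 0.23 (adjusted p = 0.00213) after scaling to the same total. *Hnrnpa0*, which binds AU-rich elements of cytokine mRNAs, ranged over 86.5 to 118 TPM and was not called.

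In the F/H group, whose proteins bind runs of G, 3 of the 4 genes were called in both DKO comparisons, not all in the same direction. *Hnrnph3* had the largest difference of any member. *Hnrnph3* measured 19.8, 18.7 and 18.7 TPM across untreated NTC and 15.4, 12.9 and 15.0 TPM across untreated DKO libraries. *Hnrnph3* with IFNγ measured 21.9, 20.5 and 23.7 TPM across NTC and 14.8, 10.5 and 11.2 TPM across DKO libraries. All DKO libraries were below all NTC libraries, most of all with IFNγ. The difference was −0.38 (log2, SE 0.105, adjusted p = 0.0124) without IFNγ and −0.82 (log2, SE 0.105, adjusted p = 4.62e-05) with it, a fold of 0.567. The first was not called without untreated DKO replicate 2 (adjusted p = 0.058). IFNγ differences were 0.20 (adjusted p = 0.215) in NTC and −0.24 (adjusted p = 0.476) in DKO, and they were not shown to differ (adjusted p = 0.382). *Hnrnph3* shares 115 exonic bases with *Rufy2* on the opposite strand, at up to 18.4 TPM, a level like its own.

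*Hnrnph1*, the main H protein, was lower in DKO as well. *Hnrnph1* measured 296, 299 and 297 TPM across untreated NTC and 248, 254 and 266 TPM across untreated DKO libraries. *Hnrnph1* with IFNγ measured 308, 293 and 309.8 TPM across NTC and 238, 226 and 254 TPM across DKO libraries. The genotypes did not overlap under either treatment. Estimates were −0.21 (log2, SE 0.0445, adjusted p = 0.00211) without IFNγ and −0.34 (log2, SE 0.0445, adjusted p = 5.16e-05) with it. *Hnrnpf*, in contrast, was higher. *Hnrnpf* measured 605, 609.5 and 596 TPM across untreated NTC and 699.8, 726 and 727 TPM across untreated DKO libraries. *Hnrnpf* with IFNγ measured 622, 629.8 and 627 TPM across NTC and 719, 696 and 742 TPM across DKO libraries. Here too the genotypes did not overlap, with differences of 0.25 (log2, SE 0.0335, adjusted p = 7.97e-05) and 0.20 (log2, SE 0.0335, adjusted p = 0.000411). The ratio of *Hnrnpf* to *Hnrnph1* was 2.01 to 2.15 in NTC libraries, 2.73 to 2.85 in untreated DKO and 2.93 to 3.07 in treated DKO libraries. Calls of both genes held under every alternative tried, though *Hnrnph1* with IFNγ was at −0.19 (adjusted p = 0.000583) after the GC and length trend was subtracted.

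*Hnrnph2*, the X-linked H gene, differed with IFNγ in NTC. *Hnrnph2* measured 53.9, 55.2 and 57.0 TPM across untreated NTC and 56.5, 53.2 and 60.6 TPM across untreated DKO libraries. *Hnrnph2* with IFNγ measured 59.2, 68.0 and 65.7 TPM across NTC and 55.4, 56.3 and 60.5 TPM across DKO libraries. Treated and untreated NTC libraries did not overlap, and the genotypes overlapped. The IFNγ difference was 0.21 (log2, SE 0.0614, adjusted p = 0.0431) in NTC and 0.02 (adjusted p = 0.966) in DKO. Leaving out 1 library moved the adjusted p of *Hnrnph2* between 0.0184 and 0.148, and the call was lost whichever untreated NTC replicate was left out, and without treated NTC replicate 2 or 3, untreated DKO replicate 1 or treated DKO replicate 1. Other losses of this call came with no filter on low values, under each scaling and with 1 prior variance, and after the GC and length trend was subtracted the estimate was 0.09 (adjusted p = 0.376). With IFNγ the DKO estimate, −0.16, lay just outside the threshold (adjusted p = 0.0502). It was called with the replicate block (0.0347) and without untreated DKO replicate 2 (0.0447) or 3 (0.0448). The same held without treated NTC replicate 1 (0.0138) or treated DKO replicate 3 (0.0285). After scaling to the same total it was −0.07 (adjusted p = 0.333). After the GC and length trend was subtracted it was −0.03 (adjusted p = 0.692).

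**Figure D4:**
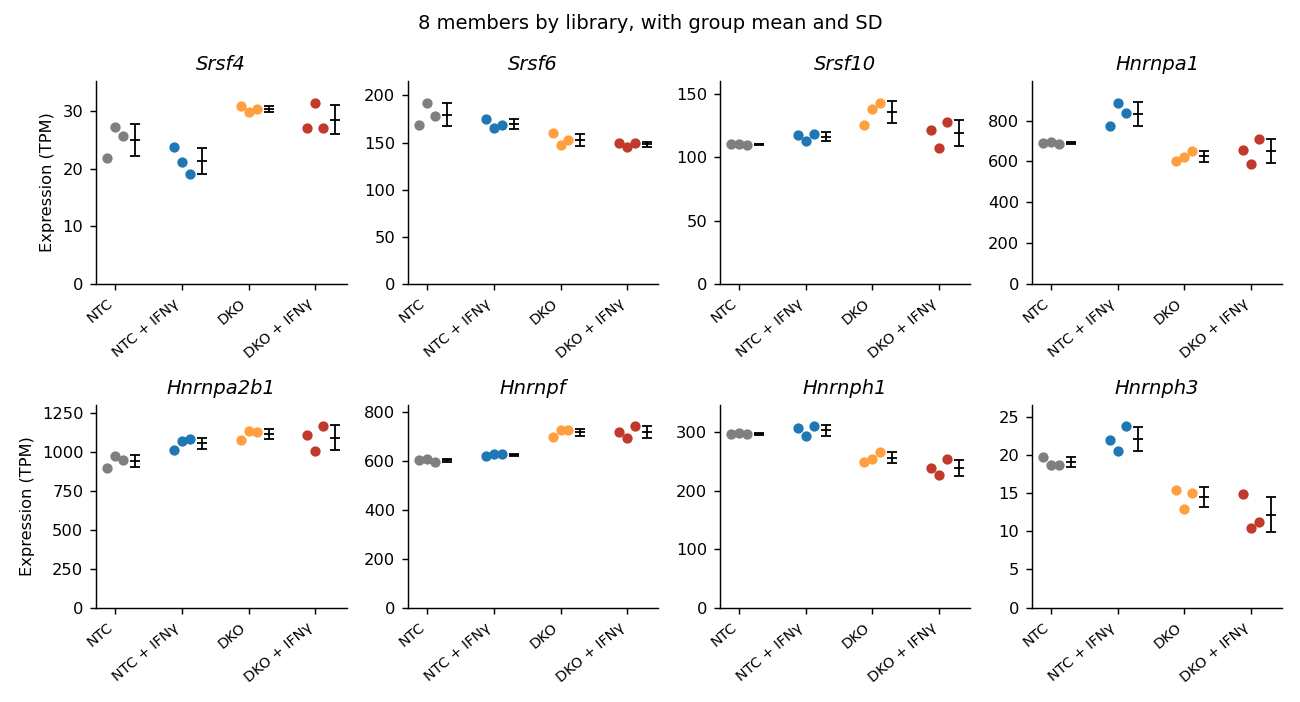
TPM of 8 members in each of the 12 libraries, with the mean and SD of each group of 3 beside the points. *Srsf4*, *Srsf10*, *Hnrnpa2b1* and *Hnrnpf* are higher and *Srsf6*, *Hnrnpa1*, *Hnrnph1* and *Hnrnph3* lower in untreated DKO than in untreated NTC libraries, though *Hnrnpa1* was not called there (limma adjusted p = 0.0858). All but *Srsf10* and *Hnrnpa2b1* also separate by genotype with IFNγ. The share of all tested genes that separate in this way was not counted.

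*Hnrnpl*, which binds CA repeats, and *Hnrnpm* were higher in DKO under both treatments. *Hnrnpl* measured 271, 297 and 288 TPM across untreated NTC and 329.5, 346 and 329 TPM across untreated DKO libraries. *Hnrnpl* with IFNγ measured 276, 289.5 and 317 TPM across NTC and 330.1, 330.3 and 331 TPM across DKO libraries. No DKO library overlapped the NTC libraries, and the differences were 0.23 (log2, SE 0.0498, adjusted p = 0.00278) and 0.17 (log2, SE 0.0498, adjusted p = 0.0143). Without treated NTC replicate 1 the second was not called (adjusted p = 0.0647). After scaling to the same total it was 0.26 (adjusted p = 0.00149). *Hnrnpm* measured 219, 246 and 231 TPM across untreated NTC and 287, 259.8 and 274 TPM across untreated DKO libraries. *Hnrnpm* with IFNγ measured 233, 244 and 219 TPM across NTC and 264, 267 and 270.3 TPM across DKO libraries. The genotypes were again separate, by 0.24 (log2, SE 0.0521, adjusted p = 0.0028) and 0.20 (log2, SE 0.0521, adjusted p = 0.00675). *Hnrnpm* shares 1169 exonic bases with *March2* on the same strand, at 19.5 to 23.4 TPM, so the split between them rests on the authors' estimate.

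*Hnrnpk*, whose KH domains bind C-rich RNA, and *Hnrnpr*, a relative of *Syncrip*, were lower in treated DKO cells. *Hnrnpk* measured 741, 753 and 743 TPM across untreated NTC and 682, 700.4 and 723 TPM across untreated DKO libraries. *Hnrnpk* with IFNγ measured 794, 826 and 825 TPM across NTC and 699, 676 and 744 TPM across DKO libraries. DKO libraries were below NTC libraries in both treatments, and the difference was −0.21 (log2, SE 0.0393, adjusted p = 0.000931) with IFNγ and −0.09 (adjusted p = 0.0971) without. After the GC and length trend was subtracted, the first was −0.06 (adjusted p = 0.106) and not called, and after scaling to the same total it was −0.12 (adjusted p = 0.0159). The second was called without treated DKO replicate 3 (0.0488). *Hnrnpr* measured 94.9, 96.8 and 97.8 TPM across untreated NTC and 91.2, 92.5 and 93.6 TPM across untreated DKO libraries. *Hnrnpr* with IFNγ measured 99.0, 108 and 108 TPM across NTC and 89.5, 84.4 and 94.5 TPM across DKO libraries. The DKO libraries were below the NTC libraries each time, at −0.23 (log2, SE 0.0483, adjusted p = 0.00191) with IFNγ, while without it the estimate was −0.06 (adjusted p = 0.345). The first was −0.11 (adjusted p = 0.0174) after the GC and length trend was subtracted and −0.14 (adjusted p = 0.02) after scaling to the same total. *Hnrnpk* shares 330 exonic bases with *Rmi1* on the opposite strand, at up to 16.5 TPM. *Hnrnpc*, which binds U tracts and packages nascent RNA, ranged over 263 to 324 TPM and was not called with all libraries. With IFNγ its DKO estimate was −0.12 (adjusted p = 0.0638). It was called lower without treated NTC replicate 1 (adjusted p = 0.0353) or treated DKO replicate 3 (0.0111). That estimate was −0.04 (adjusted p = 0.548) after scaling to the same total. It turned to 0.02 (adjusted p = 0.673) after the GC and length trend was subtracted.

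Of the U group, *Hnrnpu* (SAF-A), a nuclear scaffold protein that binds chromatin and RNA, differed with IFNγ in NTC. *Hnrnpu* measured 322, 333 and 319.6 TPM across untreated NTC and 322, 323 and 326 TPM across untreated DKO libraries. *Hnrnpu* with IFNγ measured 345, 382 and 372 TPM across NTC and 337, 326 and 367 TPM across DKO libraries. Treated NTC libraries were above untreated ones, by 0.17 (log2, SE 0.0479, adjusted p = 0.0359), and the genotypes overlapped. Leaving out 1 library moved the adjusted p of *Hnrnpu* between 0.015 and 0.127, and the call was lost whichever untreated NTC replicate was left out, and without treated NTC replicate 2 or 3, or untreated DKO replicate 3. Neither did it hold with no filter on low values, under each scaling and with 1 prior variance, and after the GC and length trend was subtracted the estimate was 0.03 (adjusted p = 0.726). *Cox20*, at up to 91.4 TPM, shares 804 exonic bases with *Hnrnpu* on the opposite strand. *Hnrnpul1* was lower in untreated DKO. *Hnrnpul1* measured 106, 109 and 105 TPM across untreated NTC and 96.9, 93.0 and 93.2 TPM across untreated DKO libraries. *Hnrnpul1* with IFNγ measured 97.7, 104 and 98.3 TPM across NTC and 92.2, 97.5 and 90.2 TPM across DKO libraries. DKO libraries were below NTC libraries each time, at −0.17 (log2, SE 0.0429, adjusted p = 0.00612) without IFNγ, and the estimate with it was −0.10 (adjusted p = 0.0772). *Hnrnpul2*, at 66.3 to 76.4 TPM, was not called. Subtraction of the GC and length trend called *Hnrnpul1* with IFNγ, at −0.17 (adjusted p = 0.0021) (as did leaving out treated DKO replicate 2, 0.0303), and *Hnrnpul2* without it, at −0.12 (adjusted p = 0.0357).

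Of the 10 tested kinases and nuclear importers of SR proteins, 2 were called higher and 4 lower without IFNγ (median −0.084) and 1 higher and 5 lower with it (median −0.087). Higher and lower shares were 20% and 40% without IFNγ and 10% and 50% with it, where all tested genes had 17% and 19.4%, then 19.5% and 23.9%. The CLK kinases phosphorylate SR proteins in the nucleus, and the largest falls in untreated DKO were *Clk2* at −0.31 (adjusted p = 0.000781), *Clk1* at −0.29 (adjusted p = 0.00789) and *Clk4* at −0.22 (adjusted p = 0.0143). With IFNγ, *Clk4* was at −0.36 (adjusted p = 0.000434), *Clk1* at −0.30 (adjusted p = 0.00634) and *Clk2* at −0.23 (adjusted p = 0.00484). *Srpk1*, the main cytoplasmic SR protein kinase, was higher in untreated DKO by 0.20 (adjusted p = 0.0013). With IFNγ in NTC, *Tnpo1*, the importer of *Hnrnpa1* protein, was called higher (0.17) and *Clk3* lower (−0.17). These are 10% each, against 7.31% and 4.78% of all tested genes.

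Among 29 tested other regulators of alternative splicing, 2 were called higher and 8 lower in untreated DKO (median −0.013), and 3 higher and 10 lower with IFNγ (median −0.063). As shares these were 6.9% and 27.6% without IFNγ and 10.3% and 34.5% with it, against 17% and 19.4%, then 19.5% and 23.9%, of all tested genes, and 17.2% and 24.8%, then 18.1% and 31.2%, of genes of at least members' abundance. The largest falls were those of *Taf15*, an RNA-binding protein of the FET family, with −0.58 (adjusted p = 7.43e-06), the helicase *Ddx17* with −0.57 (adjusted p = 1.16e-06), *Rbm39*, a U2AF-like factor, with −0.54 (adjusted p = 2.19e-05) and *Ewsr1* with −0.30 (adjusted p = 0.000173). With IFNγ, *Ddx17* was at −0.66, *Rbm39* at −0.63, *Taf15* at −0.56 and *Pspc1*, a paraspeckle protein, at −0.39, all called. IFNγ in NTC called 2 higher, *Pspc1* (0.23) and *Ptbp3* (0.18), and none lower. Their share of 6.9% lies near the 7.31% of all tested genes called higher, where 4.78% were lower.

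Of 37 core spliceosome genes, 5 were called higher and 10 lower in untreated DKO (median −0.012) and 8 higher and 9 lower with IFNγ (median −0.0099). Their shares were 13.5% and 27% without IFNγ and 21.6% and 24.3% with it, where all tested genes had 17% and 19.4%, then 19.5% and 23.9%, and genes of at least members' abundance 17.2% and 24.8%, then 18.1% and 31.2%. *Snrpb2*, a U2 snRNP protein, fell most, at −0.46 (adjusted p = 0.000359) and −0.61 (adjusted p = 3.05e-05). *Sf3b3* was higher by 0.35 (adjusted p = 0.000353) and the helicase *Snrnp200* was lower, at −0.31 (adjusted p = 9.66e-05), both without IFNγ. IFNγ in NTC called 2 higher and 2 lower, or 5.41% each, against 7.31% and 4.78% of all tested genes. *Sf3b5* was at −0.56 (adjusted p = 0.027) there. The 20 SR-related proteins and cofactors had 1 higher and 2 lower in untreated DKO and 6 higher and 3 lower with IFNγ (medians 0.052 and −0.015), or 5% and 10% without IFNγ and 30% and 15% with it. *Rnps1*, an exon junction complex partner, was higher by 0.24 (adjusted p = 0.0015) and 0.28 (adjusted p = 0.000381). In NTC with IFNγ, 2 of them were higher and 1 lower, or 10% and 5%, near the 7.31% and 4.78% of all tested genes. The lower gene was *Scaf1* at −0.39 (adjusted p = 0.0242). Of 15 genes of nonsense-mediated decay and the exon junction complex, none was higher and 3 were lower in untreated DKO by limma, and 1 was higher and 1 lower with IFNγ. Those are 0% and 20% without IFNγ and 6.67% each with it. No gene of these lists was called with IFNγ in DKO cells or in the difference between genotypes. Of all tested genes, 0.677% were higher and 0.103% lower in the first, and 0.00857% and 0.0257% in the second.

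The 12 hnRNPs known by other or older names had 1 called higher and 3 lower in untreated DKO (median 0.097) and 4 higher and 3 lower with IFNγ (median 0.015). These were 8.33% and 25% without IFNγ and 33.3% and 25% with it, beside 17% and 19.4%, then 19.5% and 23.9%, of all tested genes. *Raly* and *Pcbp2* were lower without IFNγ, at −0.19 and −0.15. *Rbmx* (hnRNP G) was lower, at −0.24 (adjusted p = 0.0109) and −0.48 (adjusted p = 8.24e-05), while its retrogene copy *Rbmxl1* was higher by 0.36 (adjusted p = 1.89e-05) and 0.37 (adjusted p = 1.42e-05). None of these 12 was called with IFNγ in either genotype. All tested genes had 7.31% higher and 4.78% lower in NTC, and 0.677% and 0.103% in DKO.

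**Figure D5:**
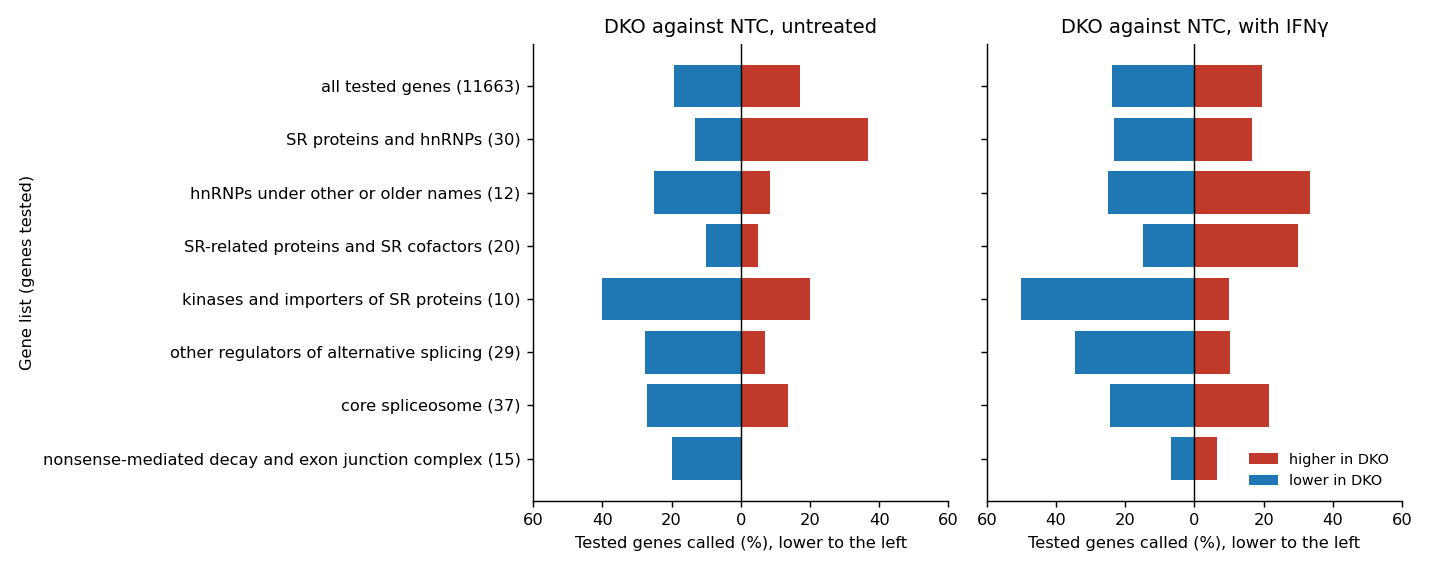
Share of tested genes called higher (red, right) and lower (blue, left) in DKO than in NTC cells without IFNγ and with it, for all tested genes, the SR proteins and hnRNPs, and 6 lists of genes that act with them; the number tested is in parentheses. The members' shares were 36.7% higher and 13.3% lower without IFNγ and 16.7% and 23.3% with it.

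Of the 31, 19 (61.3%) have at least 1 annotated transcript marked as a target of nonsense-mediated decay, against 30.5% of 11420 tested protein-coding genes. The share was 11 of 13 for SR genes and 8 of 18 for hnRNPs, and the members have a median of 8 annotated transcripts against 5. Gene-level TPM add such transcripts to the coding ones, so a difference in TPM does not tell which of them moved, and isoforms were not analysed here.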

How the data were processed

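RNA-seq of 12 libraries was analysed from 1 table of the whole series. Per the submitters' processing notes and the paper, poly(A)-selected unstranded libraries were quantified with RSEM 1.2.4 calling Bowtie, and unaligned reads were passed to TopHat on mm10. What the authors deposited under the name of counts are TPM. The listed genes summed to 805782 to 827191 TPM in DKO and 844185 to 874612 TPM in NTC libraries, and a scaling between libraries is not stated.

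A gene needed 1 TPM or more in 3 or more libraries, and limma 3.58.1 (R 4.3.3) modelled log2(TPM + 1) with a mean for each group and a mean-dependent prior variance. The comparisons were IFNγ against untreated in each genotype, DKO against NTC under each treatment, and the difference of responses. The fit was tested on simulated data, and no outcome of that test is given or relied on here. The symbols that define the members and the genes of the lists were chosen with earlier results of these data known, and no test was made over them. Members given with all 12 values are, per comparison and direction, up to 6 called members with the largest absolute difference, and the 3 most abundant. Of other lists, up to 4 called genes per comparison were named.

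Alternatives were a pseudocount of 0.1, no filter, only the 6 libraries of a comparison, a replicate block, libraries scaled to equal totals or by median ratios, subtraction of a trend with GC content and length (also with the block), 1 prior variance and each library left out. GENCODE M21 (GRCm38) gave positions, transcript types and GC content, and 22251 of 23022 listed genes matched. Tables and figures used Python 3.11.15, pandas 2.3.3, numpy 2.4.6 and matplotlib 3.10.9. Near-identical copies were found with blastn. Splicing itself was not analysed here.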

Additional observations from a re-analysis of the deposited data

How the results depend on the processing

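Of the 15 calls in untreated DKO against NTC, 10 held under all 21 alternatives, as did 8 of the 12 with IFNγ and 0 of the 5 for IFNγ in NTC cells. The number of members called higher with IFNγ in NTC, 5 as reported, was 1 with no filter on low values, 1 after scaling to the same total, 1 with median-ratio scaling, 1 once a GC and length trend was subtracted, 0 with this and the replicate block, and 0 with 1 prior variance. In the same order, all tested genes called higher numbered 572, 525, 606, 349, 281 and 439, against 853 as reported. In DKO cells, 2 members were called lower with IFNγ once the trend was subtracted, against 0, and 0 when the replicate block was fitted with it. Members called higher in DKO with IFNγ, 5 as reported, were 9 after scaling to the same total, 12 with the trend subtracted and 12 with the trend subtracted and the replicate block. All tested genes called higher there numbered 3283, 2346 and 2277, against 2271 as reported. The cause was not tested.

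With each library left out in turn, members called higher with IFNγ in NTC numbered 0 to 8, those higher in untreated DKO 7 to 11 and those lower 3 to 6, and with IFNγ 3 to 6 higher and 7 to 14 lower. Over all tested genes, 213 to 1257 were called higher with IFNγ in NTC. In untreated DKO 1589 to 2097 were higher and 1831 to 2378 lower, and with IFNγ 1872 to 2266 and 2356 to 2847. Each such fit leaves 2 libraries in a group. The difference between responses had 0 calls throughout.

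Replicate numbers did not pair the samples: same-numbered libraries had correlations of −0.179 to 0.182, and 4 of 18 pairs were over 0.1. With the replicate block, members called higher with IFNγ in NTC numbered 4, and with IFNγ 4 were higher and 8 lower in DKO. Of all tested genes, the block left 661 called in the first, and 2207 higher and 2692 lower in the second.

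Some differences changed sign, not all of them near 0. With the trend removed, *Hnrnpc* in DKO against NTC with IFNγ went from −0.122 to 0.0177. *Hnrnph1* with IFNγ in NTC went from 0.0291 to −0.102. *Hnrnpab* in untreated DKO, −0.0037, was 0.0468 after scaling to the same total, 0.00264 with median-ratio scaling and 0.00255 with the trend removed, without the block and with it. Leaving out libraries, it ran from −0.0212 to 0.0187, *Hnrnpa3* from −0.0158 to 0.0283, and with IFNγ in DKO *Hnrnpa3* ran from −0.00187 to 0.145 and *Hnrnpa2b1* from −0.0758 to 0.0278. TPM keep no depth, so what depth limits could not be stated.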

Other observations

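MBNL proteins bind YGCY tetramers, of which the members hold fewer per kb at the median than tested coding genes. In the longest coding transcript of each gene, the median density was 11.7 per kb for the 31 members and 15.4 per kb for 11408 tested protein-coding genes. It was 11.1 per kb for the 19 members called in a DKO comparison and 12.2 per kb for the 11 tested members not called. *Srsf2* and *Srsf4* had the highest densities, 21.1 and 19.9 per kb, and *Hnrnpa2b1* the lowest, 4.63 per kb, below all but 0.614% of tested coding genes. These are letters counted in transcripts without introns and say nothing of binding. Every such tetramer holds G and C, and the members are poor in both, with a median GC content of 44.6% against 50.6%. No comparison at like GC content was made.

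A near-identical stretch in another annotated gene was found for 13 of the 31 members, which in *Hnrnpm* and *Hnrnpul2* is a gene overlapping at the same locus, and for 7 such a gene is in the deposited table. Besides *Hnrnpa3*, *Hnrnpa1* had 8 copies, *Hnrnpf* 6 and *Srsf3* and *Tra2b* 4 each, and the listed copies of *Hnrnpa1*, *Hnrnpf* and *Srsf3* reached no more than 1.05, 0.521 and 0.442 TPM.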
